A study of Mus musculus with 23 samples.

Results

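Heat shock chaperones were followed in mouse circumvallate papillae, the groove-shaped taste papillae at the back of the tongue, in lean, obese and energy-restricted mice. The 10 genes named for this purpose were Hspa1a, Hspa1b, Hsph1, Dnajb1, Hspb1, Hsp90aa1, Hspa8, Hspd1, Hspe1 and the regulator Hsf1. A probe was counted when the array's own annotation named it for one of them. By that rule 9 of the 10 genes had a probe, 14 probes in all, among 28366 genes kept for testing of 35019 gene symbols on the array. Hspa1b had no probe of its own name.

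Chaperones bind unfolded or newly made proteins and help them fold, or hold them until they can be refolded or destroyed. When proteins unfold, after heat or other stress, the transcription factor Hsf1 is released from chaperones, forms trimers and binds heat shock elements, runs of the unit NGAAN in alternating orientation, upstream of chaperone genes. In a lining epithelium such as that of the tongue, chaperones are also made without stress, and the small heat shock protein Hspb1 is a known product of differentiating keratinocytes.

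All samples came from male C57Bl6j mice. Lean mice ate standard chow (3% fat, w/w) freely and gave 7 arrays. DIO mice ate an obesogenic high-fat diet rich in saturated fat, also freely, and gave 8. The name DIO-R, with 8 arrays, is not explained, and is taken to mean DIO mice limited to 60% of their free energy intake, as the design text describes some DIO mice. Per the series' design text, the epithelium was loosened with elastase and dispase before the papilla was cut out. Nothing in the labels says that each sample is a separate animal, or gives the age or the length of the diets, so the p-values measure the spread between these samples, which may be technical. These are pieces of tissue, so a lower share of cells of a type and less RNA per cell cannot be told apart.

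Each of the 23 samples had 1 array, and between 67.9% and 79.1% of its probes were well above background. No spot was saturated. The 14 chaperone probes were well above background on 23 of 23 arrays, as were Krt5, Krt14, Krt4 and Krt13 of the lingual epithelium and Gnat3, Trpm5, Plcb2, Tas1r3 and Pkd2l1 of taste cells. The arrays lay on 3 slides of 8, 8 and 7, each with arrays of all 3 groups. Between slides, 201 genes (0.709%) differed at an adjusted p under 0.05 in a limma fit, and no chaperone was among them (lowest adjusted p 0.496, for Hspb1). Arrays carry no read depth, and their number limits the precision.

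Promoter sequences are shown first, because they show which of the genes carry the letters of a heat shock element near their start. RefSeq promoter windows, from 250 bases before to 50 bases after each gene start on GRCm38.p6, matched 7 of the 10 genes by symbol. Hsp90aa1, Hspa8 and Hsf1 had no entry. Both strands were searched for the 2-unit motifs GAANNTTC and TTCNNGAA and for the 3-unit motifs GAANNTTCNNGAA and TTCNNGAANNTTC. Each 3-unit match holds overlapping 2-unit matches. In the stretches below, written 5′ to 3′ on the strand of the gene, capitals mark the matches.
Hspa1a: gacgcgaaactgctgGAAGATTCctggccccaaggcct
Hsph1: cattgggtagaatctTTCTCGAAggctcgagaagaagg
Hspb1: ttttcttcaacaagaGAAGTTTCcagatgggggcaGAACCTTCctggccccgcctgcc
Hspd1: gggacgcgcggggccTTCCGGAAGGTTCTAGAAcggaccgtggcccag
Hspe1: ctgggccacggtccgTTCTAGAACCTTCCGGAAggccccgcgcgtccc
The Hspa1a stretch lies on the minus strand at chr17:34972238-34972275, from 119 to 82 bases before the start. Hsph1 (chr5:149636347-149636384, minus strand) is shown from 69 to 32 bases before the start, or from 48 to 11 before a second listed start. The Hspb1 stretch at chr5:135887787-135887844 on the plus strand has 2 separate matches. Hspd1 and Hspe1 are shown over the same 48 bases, chr1:55088044-55088091, read on the minus strand for Hspd1 and on the plus strand for Hspe1.

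Of the 7 genes with a window, 6 held an exact 2-unit match, and Dnajb1 held none. The matches are not all separate. Hspa1a and Hspa1b are near copies with the same stretch, and Hspd1 and Hspe1 are counted on the same bases. The shares of all windows and genes given next are therefore no like measure for these counts. Only exact matches were counted, so elements with a changed base were not sought in any gene. Over all 32851 RefSeq promoter windows the share with a 2-unit match was 15.1%, and by gene it was 17.0% of 27025. A 3-unit match stood in 3 of the 7, Hspd1, Hspe1 and Hsph1, against 0.603% of all windows and 0.662% of all genes. The Hsph1 3-unit match lies after the start, at bases 16 to 28 from the first listed one. Hspd1 and Hspe1 point away from each other, with their first listed starts 216 bases apart, so both windows hold the same run, which has 2 overlapping 3-unit matches. A second listed Hspd1 start lies beyond the Hspe1 start, so from there the genes overlap and the run lies after the Hspd1 start. The window of that second start held no match. Of 15 other heat-inducible genes, 13 had a window, 5 with a 2-unit match (Bag3, Chordc1, Dnaja1, Dnajb4 and Fkbp4) and 1 with a 3-unit match (Chordc1). A match describes letters only and was not shown here to be a binding site.

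Hspa1a and Hspa1b encode the stress-inducible Hsp70 of the cytosol and are neighbouring copies. Their promoter windows were identical at 296 of 300 bases (98.7%). The differences, Hspa1a first and counted from 1 at the 5′ end of the window, were C44T, T47C, T249G and C276T, and the stretch printed for Hspa1a is the same in Hspa1b (chr17:34959320-34959357, minus strand). The only Hspa1a probe, at chr17:35107117-35107176 on the minus strand of mm9, lists RefSeq transcripts of both genes, so its value is that of Hspa1a and Hspa1b together. Its 60 bases show what was measured.
Hspa1a probe: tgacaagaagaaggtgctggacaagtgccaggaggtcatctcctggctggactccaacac

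In all 3 comparisons, none of the 9 chaperones with a probe passed an adjusted p of 0.05 in the limma fit of all 28366 genes, with Benjamini-Hochberg adjustment. The share of all genes that passed was 0.00353% for DIO against Lean (1 gene), 0.0599% for DIO-R against DIO (17 genes) and 0.127% for DIO-R against Lean (36 genes). At an unadjusted p under 0.05 the chaperones numbered 0 of 9, 3 of 9 and 5 of 9 in that order, against 8.95%, 9.73% and 8.95% of all genes. The chaperones were chosen with earlier results of these data known, and they are correlated across arrays. The shares are thus a description and no test of the family. The largest differences were those of Hspa1a and Hsph1, both with their highest means in DIO-R. The 3 comparisons share their groups and are not independent of one another.

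Inducible Hsp70 came closest to the threshold. Values below are log2 of the background-subtracted probe intensity minus the array's 75th percentile, called log2 values, and they are not compared between probes. Hspa1a ran from 1.28 to 1.83 on the Lean arrays (median 1.39), from 0.70 to 1.76 on the DIO arrays (median 1.13) and from 1.52 to 2.42 on the DIO-R arrays (median 1.97). All 8 DIO-R arrays were above the mean of either other group, yet the ranges overlapped: DIO 10 reached 1.76 and Lean 3 reached 1.83, above the lowest DIO-R array. Groups without overlap were seen for none of the chaperones, and for 0.12%, 0.0881% and 0.303% of all genes in the order of comparisons above.

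The mean of Hspa1a in DIO-R lay 0.69 ± 0.15 (SE) above DIO on the log2 scale, which is 1.61-fold (limma, unadjusted 95% interval 0.38 to 1.00, adjusted p = 0.103). Against Lean the DIO-R mean lay 0.45 ± 0.15 higher (adjusted p = 0.354). DIO lay below Lean by a log2 difference of -0.24 ± 0.15 (adjusted p = 0.703). Within slides 1, 2 and 3 the DIO-R minus DIO difference was 0.68, 0.76 and 0.57, and with slide as a block it was 0.67 (adjusted p = 0.113). DIO 10 was the highest DIO array for Hspa1a, so leaving it out had to widen the difference. That brought it to 0.76 and past the threshold (adjusted p = 0.0434), and the calls over all genes rose from 17 to 23. Over all 32 alternatives with an adjusted p from the gene-level fit, that p ran from 0.0434 to 0.556.

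Hsph1, an Hsp110 that speeds the release of ADP from Hsp70, had the largest difference from Lean. Its log2 values were 1.61 to 2.49 in Lean (median 2.10), 1.64 to 2.79 in DIO (median 2.27) and 2.28 to 3.46 in DIO-R (median 2.61). All 8 DIO-R arrays were above the Lean mean, and only Lean 7, at 2.49, entered the DIO-R range. The DIO-R mean lay 0.70 ± 0.19 above Lean, or 1.62-fold (unadjusted 95% interval 0.31 to 1.09), with a limma adjusted p of 0.188. It lay 0.42 ± 0.18 above DIO (adjusted p = 0.497), and DIO lay 0.28 ± 0.19 above Lean (adjusted p = 0.716).

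A second Hsph1 probe, at chr5:150420110-150420169 of mm9 against chr5:150419744-150419803 for the first, gave 0.69 ± 0.20, 0.40 ± 0.20 and 0.29 ± 0.20 for the same comparisons. In the fit over 41713 probes its adjusted p for DIO-R against Lean was 0.288, and that of the first probe 0.225. The DIO-R minus Lean difference of the first probe was 0.45, 0.72 and 0.90 within slides 1, 2 and 3 and 0.69 with slide as a block (adjusted p = 0.254). The Lean and DIO ranges of both probes overlapped.

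**Figure D1:**
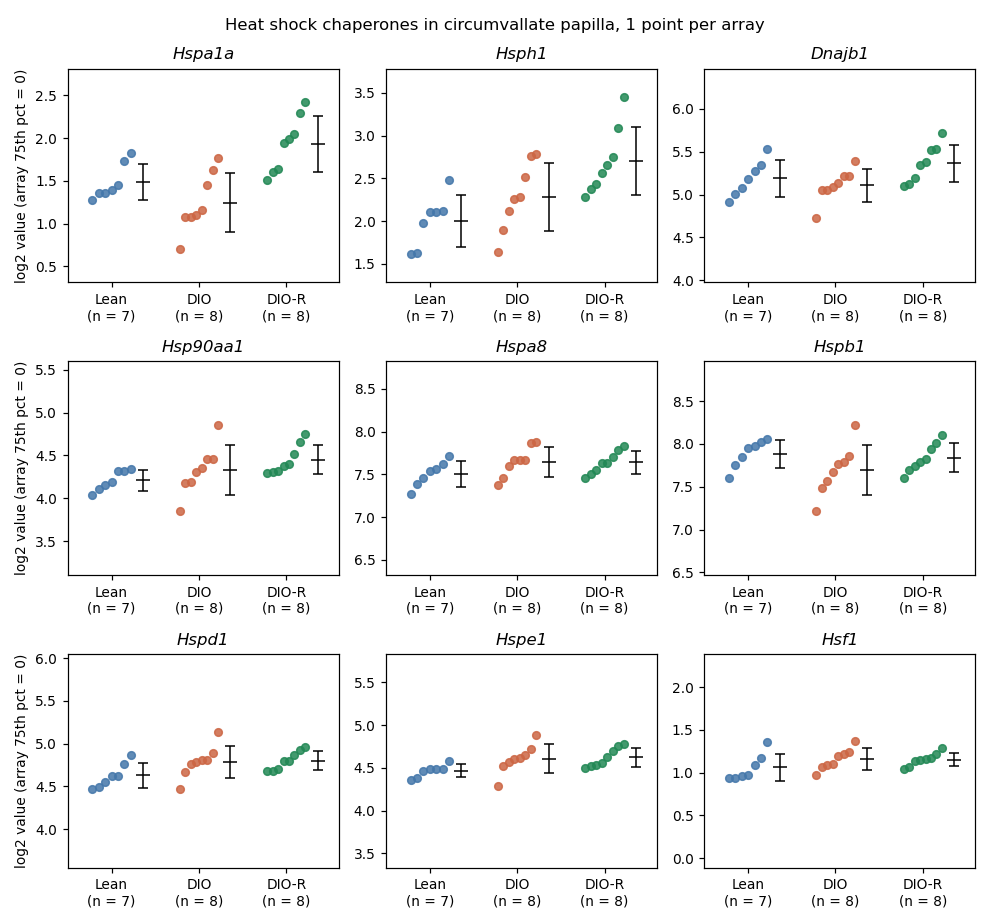
Log2 value (array 75th percentile set to 0) of the probe used for each of 9 chaperone genes, 1 point per array for the 7 Lean, 8 DIO and 8 DIO-R arrays; the bar beside each group is its mean ± SD, and every panel spans the same log2 width. The DIO-R points of Hspa1a and Hsph1 sit highest but overlap the other groups, and the other genes move within narrower bands.

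Dnajb1, the Hsp40 that hands clients to Hsp70 and starts its ATP cycle, lay nearer to its level in the other groups. Log2 values ran from 4.91 to 5.53 in Lean (median 5.18), from 4.73 to 5.39 in DIO (median 5.11) and from 5.10 to 5.72 in DIO-R (median 5.37). Of the DIO-R arrays, 7 of 8 were above the DIO mean and 6 of 8 above the Lean mean. The DIO-R mean was 0.25 ± 0.11 above DIO (limma adjusted p = 0.492) and 0.17 ± 0.11 above Lean (adjusted p = 0.663), with a DIO minus Lean value of -0.08 ± 0.11 (adjusted p = 0.886). Within slides the DIO-R minus Lean difference was 0.24, 0.37 and -0.14, so slide 3 had the opposite sign.

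Hsp90aa1, the stress-inducible Hsp90 that matures kinases and steroid receptors, had log2 values of 4.03 to 4.34 in Lean (median 4.19), 3.85 to 4.85 in DIO (median 4.33) and 4.29 to 4.75 in DIO-R (median 4.39). The DIO arrays spread on both sides of the other groups. All 8 DIO-R arrays were above the Lean mean. The DIO-R mean lay 0.24 ± 0.11 above Lean (adjusted p = 0.516), and the steps from Lean to DIO and from DIO to DIO-R were both 0.12 ± 0.11 (adjusted p = 0.814 and 0.683).

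Hspa8, the Hsp70 that cells make without stress, was read by 3 probes. The brightest, used for the gene, ran from 7.27 to 7.71 in Lean (median 7.54), from 7.37 to 7.88 in DIO (median 7.67) and from 7.46 to 7.83 in DIO-R (median 7.64). Its DIO minus Lean difference was 0.14 ± 0.08 (adjusted p = 0.665), against 0.30 ± 0.15 and 0.20 ± 0.10 at the other two probes. DIO-R minus DIO was -0.01 ± 0.08 (adjusted p = 0.977), -0.08 ± 0.14 and -0.06 ± 0.10. DIO-R minus Lean was 0.13 ± 0.08 (adjusted p = 0.667), 0.22 ± 0.15 and 0.13 ± 0.10. All 3 probes thus had Lean lowest and DIO near DIO-R, with wide overlap between groups.

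Hspb1 forms large oligomers that hold unfolded proteins and bind the cytoskeleton. It was the chaperone with its highest mean in Lean. Its log2 values ran from 7.60 to 8.05 in Lean (median 7.96), from 7.21 to 8.22 in DIO (median 7.72) and from 7.60 to 8.11 in DIO-R (median 7.80). Of the DIO arrays, 7 of 8 were below the Lean mean, while DIO 3 was the highest of all 23. DIO minus Lean was -0.19 ± 0.11 (adjusted p = 0.668), DIO-R minus DIO 0.14 ± 0.11 (adjusted p = 0.649) and DIO-R minus Lean -0.05 ± 0.11 (adjusted p = 0.918).

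Hspd1 and Hspe1, the Hsp60 barrel and the Hsp10 lid of the mitochondrial chaperonin, had nearly equal differences. Hspd1 ran from 4.47 to 4.87 in Lean (median 4.62), 4.47 to 5.13 in DIO (median 4.79) and 4.68 to 4.96 in DIO-R (median 4.80). Hspe1 ran from 4.35 to 4.58 in Lean (median 4.49), 4.28 to 4.88 in DIO (median 4.61) and 4.50 to 4.78 in DIO-R (median 4.60). For both genes all 8 DIO-R arrays were above the Lean mean, and the DIO range enclosed that of DIO-R.

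DIO minus Lean was 0.16 ± 0.08 for Hspd1 and 0.14 ± 0.07 for Hspe1 (limma adjusted p = 0.592 for each). DIO-R minus Lean was 0.17 ± 0.08 (adjusted p = 0.547) and 0.16 ± 0.07 (adjusted p = 0.530). Between DIO-R and DIO the differences were 0.01 ± 0.08 and 0.02 ± 0.07, with unadjusted 95% intervals of -0.15 to 0.18 and -0.13 to 0.16. The energy-restricted and freely fed obese mice thus lay close together for both subunits, with differences of up to those bounds not excluded by the intervals.

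Of the 3 Hspe1 probes, the one used for the gene (chr1:55148026-55148085 of mm9) and a second (chr1:55148023-55148082) overlap by 57 bases and differ at 1 of them. Counted from 1 at the 5′ end of the probe used, the difference is T12C. Both thus read nearly the same site and are not independent readings of the gene. A stretch of 30 of the overlapping bases is shown, with the differing base in capitals.
Hspe1 probe used: catgtaaataaTttccatgcctccctttta
Hspe1 second probe: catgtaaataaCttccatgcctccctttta
The second probe gave 0.13 ± 0.08 for DIO minus Lean, 0.01 ± 0.07 for DIO-R minus DIO and 0.14 ± 0.08 for DIO-R minus Lean. The third probe, from an upstream part of the transcript, gave 0.06 ± 0.10, 0.05 ± 0.09 and 0.12 ± 0.10. None of the 14 probes passed in the fit over probes.

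Hsf1 mRNA, whose protein is controlled mostly after translation, had log2 values of 0.94 to 1.35 in Lean (median 0.97), 0.98 to 1.37 in DIO (median 1.14) and 1.04 to 1.28 in DIO-R (median 1.15). The ranges of the 3 groups overlapped. DIO minus Lean was 0.10 ± 0.07 (adjusted p = 0.747), DIO-R minus Lean 0.09 ± 0.07 (adjusted p = 0.716) and DIO-R minus DIO -0.01 ± 0.07 (adjusted p = 0.980). Within slides 1, 2 and 3 DIO minus Lean was -0.04, 0.13 and 0.26, so slide 1 had the opposite sign.

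**Figure D2:**
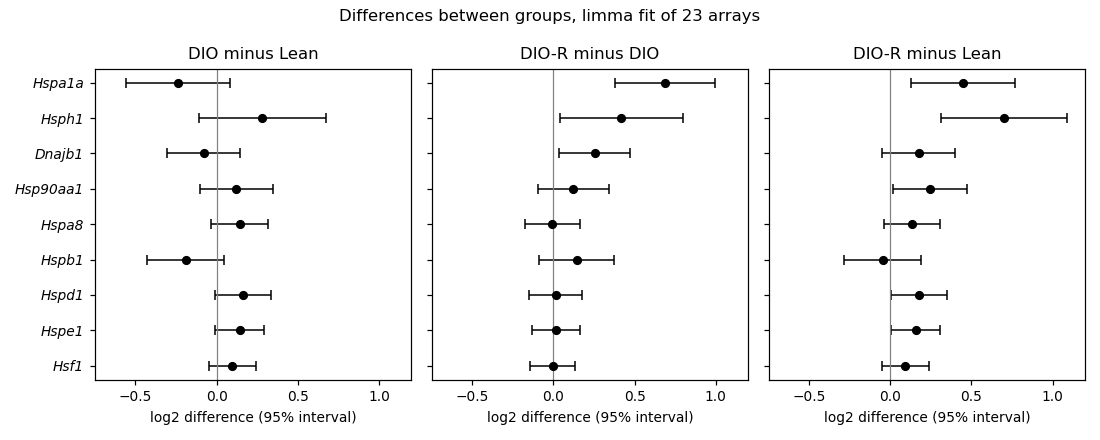
Difference of group means on the log2 scale, with its unadjusted 95% interval, for 9 chaperone genes in the 3 comparisons of the limma fit of 23 arrays. The interval lies above 0 for Hspa1a, Hsph1 and Dnajb1 in DIO-R minus DIO and for Hspa1a, Hsph1, Hsp90aa1, Hspd1 and Hspe1 in DIO-R minus Lean, and none of these passed after adjustment.

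By direction alone, 6 of the 9 genes were higher in DIO than in Lean, 7 higher in DIO-R than in DIO and 8 higher in DIO-R than in Lean. Over all genes the shares above 0 were 41.1%, 51.7% and 44.6%. The median log2 difference of the 9 genes was 0.12, 0.12 and 0.17, beside medians over all genes of -0.04, 0.01 and -0.02. The 9 genes are correlated across arrays, as shown next, so they do not count as 9 separate measurements.

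**Figure D3:**
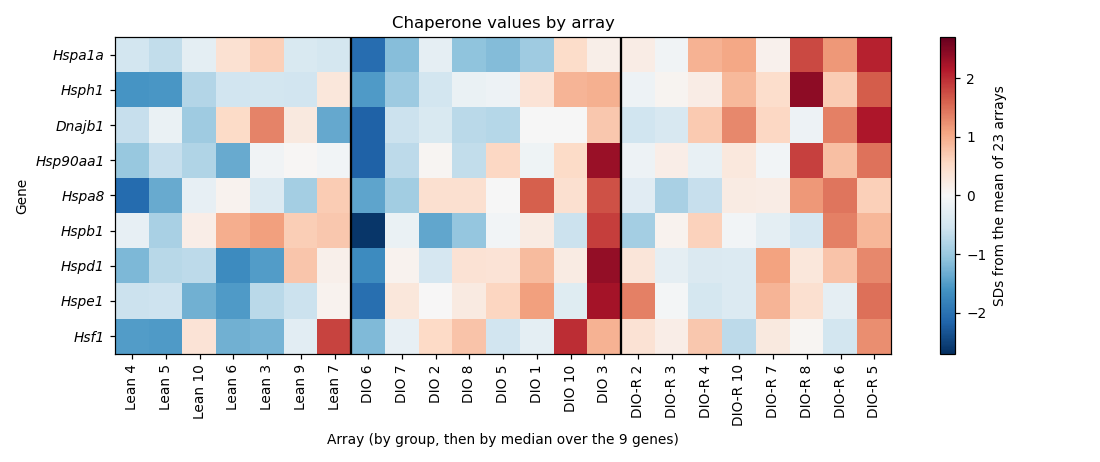
Each chaperone gene on each of 23 arrays, in SDs from that gene's mean over the arrays (colour scale), with arrays sorted within Lean, DIO and DIO-R by the median over the 9 genes. DIO 6 lies below the mean and DIO 3 above it in every row, and by that median both the lowest and the highest array are DIO.

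The DIO arrays held both ends of the order. DIO 6 was the lowest DIO array for each of the 9 genes and the lowest of all 23 for 6 of them (Hspa1a, Dnajb1, Hspb1, Hsp90aa1, Hspd1 and Hspe1). DIO 3 was the highest of all 23 for 5 (Hspb1, Hsp90aa1, Hspa8, Hspd1 and Hspe1). DIO-R 5 was among the 3 highest for 7 genes. Without DIO 3 and DIO 6, a choice made after seeing the data, the Hspa1a difference between DIO-R and DIO was 0.66 (adjusted p = 0.242) and that of Hsph1 between DIO-R and Lean 0.70 (adjusted p = 0.129).

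Marker lists were read on the same arrays, and some but not all lay near an end of their own order. The mean log2 value of 15 keratinocyte markers was 4.29 on DIO 6, lowest of the 23, and 5.45 on DIO 3, the third highest. That of 10 fibroblast and matrix markers was 4.39 on DIO 6, the highest, and 3.17 on DIO 3, lowest but 1. The 10 von Ebner gland markers had 4.79 on DIO 6, the highest, and 3.07 on DIO 3, at rank 13 of 23. Counted from the highest of 23, endothelial markers ranked 3 on DIO 6 and 22 on DIO 3, and macrophage markers 2 and 20. Taste markers ranked 22 and 9, muscle 11 and 15, adipocyte 6 and 12, erythrocyte 5 and 3, and lymphocyte 6 and 7. The part of these cells in the chaperone values was not tested.

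Across the 23 arrays, all 36 pairs among the 9 genes had a Pearson's r above 0, with a median of 0.51 and a range of 0.02 to 0.86. By a permutation test with 100000 permutations and Benjamini-Hochberg adjustment over the 36 pairs, 23 pairs passed an adjusted p of 0.05 by Pearson's r and 20 by Spearman's rho. High r was not rare on these arrays: over all other genes, the 95th percentile of r with a chaperone ran from 0.42 (Hspa8) to 0.65 (Dnajb1 and Hspb1). With the group means removed the median r was 0.53 and 23 pairs passed. Without DIO 3 and DIO 6 the median was 0.39 and 9 pairs passed; these 2 arrays were chosen for their extreme values, and fewer arrays were tested. Within slides 1, 2 and 3 the median r was 0.46, 0.70 and 0.29, and 24 pairs had r above 0 in every slide.

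The highest r joined Hspd1 and Hspe1, the pair with the shared promoter stretch printed above. It was 0.86 (permutation p = 1e-05, the smallest 100000 permutations can give, adjusted p = 0.00018) with a rho of 0.82 (permutation p = 3e-05, adjusted p = 0.00036). Without DIO 6 and DIO 3, the 2 arrays farthest from the median of Hspd1, r was 0.77. Within slides it was 0.43, 0.98 and 0.85. Slide 1 was the weakest: there Lean 9 and DIO-R 6 were above the 23-array mean for Hspd1 and below it for Hspe1.

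Cytosolic chaperones formed the next pairs. Hsph1 with Hsp90aa1 had r = 0.83 (permutation p = 1e-05, adjusted p = 0.00018) and rho = 0.82 (permutation p = 1e-05, adjusted p = 0.00036), with 0.76 without the 2 farthest arrays and 0.82, 0.90 and 0.90 within slides. Hspa1a with Dnajb1, the Hsp70 and its Hsp40, had r = 0.79 (permutation p = 3e-05, adjusted p = 0.00027) and rho = 0.76 (permutation p = 4e-05, adjusted p = 0.00036), with 0.64 without DIO-R 5 and DIO 6 and 0.71, 0.95 and 0.39 within slides. Hsph1 with Hspa8 had r = 0.77 (permutation p = 2e-05, adjusted p = 0.00024) and rho = 0.81 (permutation p = 2e-05, adjusted p = 0.00036), with 0.79 without the 2 farthest arrays and 0.89, 0.76 and 0.85 within slides.

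Hsp90aa1 with Hspd1 had r = 0.76 (permutation p = 4e-05, adjusted p = 0.000288) and rho = 0.65 (permutation p = 0.00136, adjusted p = 0.00612), with 0.59 without DIO 6 and DIO 3 and 0.67, 0.97 and 0.18 within slides. Hspa1a with Hsph1 had r = 0.73 (permutation p = 0.00013, adjusted p = 0.000669) and rho = 0.65 (permutation p = 0.00117, adjusted p = 0.00612), with 0.63 without DIO-R 5 and DIO 6 and 0.43, 0.85 and 0.78 within slides. Both pairs kept their sign on each slide.

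Inducible Hsp70 went less with the mitochondrial chaperonin. Hspa1a had r = 0.23 with Hspd1 (permutation p = 0.285, adjusted p = 0.302, rho = 0.17, permutation p = 0.448, adjusted p = 0.520) and 0.24 with Hspe1 (permutation p = 0.278, adjusted p = 0.302, rho = 0.09, permutation p = 0.674, adjusted p = 0.735). Without DIO-R 5 and DIO 6 these were -0.07 and -0.14. With Hsf1 mRNA it had r = 0.25 (permutation p = 0.252, adjusted p = 0.284, rho = 0.22, permutation p = 0.303, adjusted p = 0.364), and 0.03 without those arrays. The difference between these correlations and the higher ones was not tested. With all other genes, the r of Hspa1a had -0.60 as its 5th and 0.60 as its 95th percentile, and that of Hspd1 had -0.41 and 0.49.

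**Figure D4:**
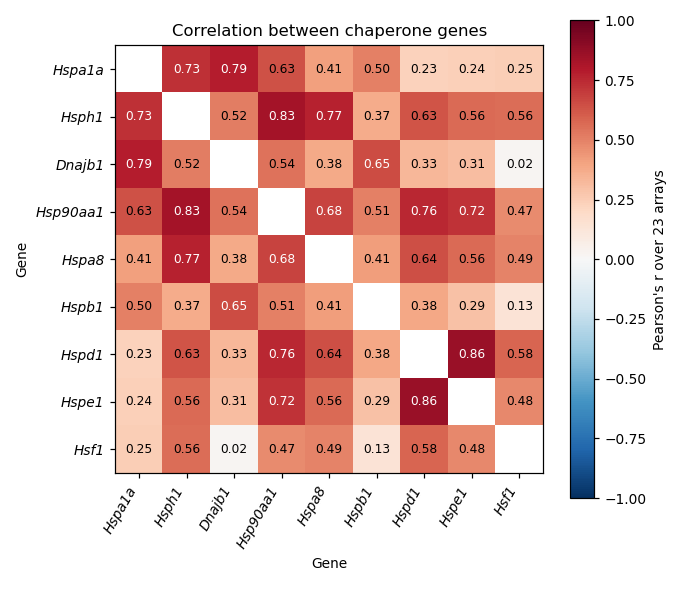
Pearson's r over 23 arrays for each pair of 9 chaperone genes, printed in the cell and coloured from -1 to 1. The highest value joins Hspd1 and Hspe1 (0.86), and Hsf1 with Dnajb1 has the lowest (0.02).

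Genes that were not chosen but followed the chaperones most closely were found from the mean standardised value of the 8 chaperones with a probe other than the regulator Hsf1, over the 23 arrays. They were Stip1 (r = 0.95), Ndufab1 (0.89), Cacybp (0.89), Cdhr1 (0.89) and Elavl1 (0.88), given as a description. With group means removed these values were 0.94, 0.90, 0.86, 0.88 and 0.85. Spearman's rho was 0.94, 0.79, 0.89, 0.84 and 0.81 in the same order. The mean standardised value was lowest on DIO 6 (-1.96) and highest on DIO 3 (1.55). Values of r without these arrays were not computed. Stip1 and Cacybp also stand in the list of other heat-inducible genes.

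Other chaperone families and the immediate early genes were described by counts and medians from the same limma fit. None of their genes passed an adjusted p of 0.05 in any comparison. Whether the genes of a list vary together across arrays was not tested, so its counts are not of separate measurements. At an unadjusted p under 0.05 stood 8.95%, 9.73% and 8.95% of all genes in DIO minus Lean, DIO-R minus DIO and DIO-R minus Lean. The shares of all genes above 0 were 41.1%, 51.7% and 44.6%. Of 15 other heat-inducible genes, 11 were higher in DIO than in Lean (median log2 difference 0.06, 2 at an unadjusted p under 0.05). Against DIO, 8 were higher in DIO-R (median 0.02, 3 at that p, 2 of them higher). Against Lean, 9 were higher in DIO-R (median 0.12, 8 at that p, 6 of them higher). Serpinh1, the collagen chaperone, was 0.61 ± 0.13 above Lean in DIO (adjusted p = 0.110). It passed without DIO 6 (0.65, adjusted p = 0.0452), where the calls over all genes rose from 1 to 37. Fkbp4, an Hsp90 partner, was 0.22 ± 0.09 above Lean in DIO (adjusted p = 0.472).

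Dnaja1, another Hsp40, lay 0.28 ± 0.09 above DIO (adjusted p = 0.433) and 0.37 ± 0.09 above Lean (adjusted p = 0.151) in DIO-R. The polyubiquitin gene Ubb went the other way, at -0.21 ± 0.06 against DIO (adjusted p = 0.316) and -0.19 ± 0.06 against Lean (adjusted p = 0.248). Heat-inducible genes outside the 9 thus did not share 1 direction.

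The endoplasmic reticulum chaperones, which fold secreted proteins, were 11 of 13 higher in DIO than in Lean (median 0.14, 4 at an unadjusted p under 0.05), 7 of 13 higher in DIO-R than in DIO (median 0.05, 1 at that p) and 13 of 13 higher in DIO-R than in Lean (median 0.16, 5 at that p). Over all genes the shares higher were 41.1%, 51.7% and 44.6%, and those at that p 8.95%, 9.73% and 8.95%. Pdia6 and Pdia3, disulfide isomerases, were 0.32 ± 0.10 and 0.20 ± 0.07 above Lean in DIO (adjusted p = 0.340 and 0.416). Dnajb9 and Pdia4 were 0.29 ± 0.09 and 0.18 ± 0.11 above DIO in DIO-R (adjusted p = 0.445 and 0.579). Creld2 and Hspa5, the latter being the Hsp70 of this compartment, were 0.42 ± 0.13 and 0.27 ± 0.10 above Lean in DIO-R (adjusted p = 0.262 and 0.412).

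Partners of Hsp70 and Hsp90 in the cytosol, 14 genes, had medians of -0.07, 0.05 and 0.03 in the order DIO minus Lean, DIO-R minus DIO and DIO-R minus Lean, with 4, 10 and 8 higher and 3, 2 and 2 at an unadjusted p under 0.05. St13 was 0.27 ± 0.11 and Fkbp5 -0.58 ± 0.24 for DIO minus Lean (adjusted p = 0.472 and 0.485). Dnaja2 and Dnajb2 were 0.16 ± 0.07 and 0.17 ± 0.07 for DIO-R minus DIO (adjusted p = 0.492 and 0.499). Fkbp5, an Hsp90 partner induced by glucocorticoids, was -0.76 ± 0.24 for DIO-R minus Lean (adjusted p = 0.296), and Ppid 0.22 ± 0.10 (adjusted p = 0.554).

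Among 8 other mitochondrial chaperones and proteases the medians were -0.05, -0.02 and -0.02, with 2, 2 and 3 higher and 1, 0 and 2 at an unadjusted p under 0.05. Clpx, the unfoldase of the matrix protease ClpXP, was -0.27 ± 0.10 for DIO minus Lean (adjusted p = 0.423) and -0.35 ± 0.10 for DIO-R minus Lean (adjusted p = 0.212). Trap1 was 0.10 ± 0.07 for DIO minus Lean (adjusted p = 0.741) and -0.10 ± 0.07 for DIO-R minus DIO (adjusted p = 0.601). Grpel2 was 0.14 ± 0.11 for DIO-R minus DIO (adjusted p = 0.650), and Clpp -0.12 ± 0.06 for DIO-R minus Lean (adjusted p = 0.519). Over all genes the medians were -0.04, 0.01 and -0.02, so the list lay close to them.

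The 8 subunits of TRiC, the cytosolic chaperonin for actin and tubulin, stayed within narrow bounds, with medians of -0.04, 0.06 and 0.01, 1, 7 and 6 higher, and none at an unadjusted p under 0.05. Cct2 was -0.09 ± 0.07 and Cct6a -0.10 ± 0.09 for DIO minus Lean (adjusted p = 0.790 and 0.822). Cct2 was 0.09 ± 0.07 and Cct3 0.11 ± 0.09 for DIO-R minus DIO (adjusted p = 0.653 and 0.655). For DIO-R minus Lean, Cct3 was 0.06 ± 0.09 and Cct8 0.05 ± 0.08 (adjusted p = 0.847 and 0.857).

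The 8 other small heat shock proteins had medians of -0.03, -0.26 and -0.26, with 4, 2 and 1 higher and 1, 0 and 1 at an unadjusted p under 0.05. Hspb7, a cardiac and skeletal muscle chaperone, was -0.68 ± 0.40 for DIO minus Lean (adjusted p = 0.652) and -1.08 ± 0.40 for DIO-R minus Lean (adjusted p = 0.399). Hspb11 was 0.21 ± 0.08 for DIO minus Lean and -0.13 ± 0.07 for DIO-R minus DIO (adjusted p = 0.414 and 0.545). Hspb3 was -0.55 ± 0.33 for DIO-R minus DIO (adjusted p = 0.573), and Cryab -0.26 ± 0.22 for DIO-R minus Lean (adjusted p = 0.738). Beside them, 15 of 15 skeletal muscle markers were lower in DIO-R than in DIO (median -0.56), where 51.7% of all genes were higher. The part of muscle in these values was not tested.

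Heat shock factors other than Hsf1 and its regulators, 6 genes, had medians of -0.12, -0.02 and -0.15, with 0, 3 and 1 higher and 1, 0 and 2 at an unadjusted p under 0.05. Hsbp1l1 was -0.48 ± 0.18 and Hsf4 -0.14 ± 0.11 for DIO minus Lean (adjusted p = 0.425 and 0.780). Hsf2bp was -0.33 ± 0.19 and Hsf5 0.43 ± 0.29 for DIO-R minus DIO (adjusted p = 0.564 and 0.601). For DIO-R minus Lean, Hsf4 was -0.24 ± 0.11 and Hsf2bp -0.43 ± 0.20 (adjusted p = 0.529 and 0.537).

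Immediate early genes, which cells switch on within minutes of a stimulus, are given because they were measured in the same arrays as a second rapid response. Of 16, 2 were higher in DIO than in Lean (median -0.21, 1 at an unadjusted p under 0.05, which was lower). Against DIO, 13 were higher in DIO-R (median 0.39, 9 at that p, all higher). Against Lean, 10 were higher in DIO-R (median 0.21, 5 at that p, 4 of them higher and 1 lower). Over all genes the shares higher were 41.1%, 51.7% and 44.6%, and those at that p 8.95%, 9.73% and 8.95%. Whether the 16 genes vary together across arrays was not tested. Egr1 was 1.18 ± 0.28 and Zfp36 0.51 ± 0.15 above DIO in DIO-R (adjusted p = 0.165 and 0.367). Fos was 1.21 ± 0.33 and Egr1 0.92 ± 0.29 above Lean in DIO-R (adjusted p = 0.191 and 0.273). Fosl1 was -0.54 ± 0.24 and Dusp1 -0.28 ± 0.15 for DIO minus Lean (adjusted p = 0.518 and 0.615).

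Summed over the 16 genes and taken as log2, the level ran from 6.14 to 6.36 in Lean, 5.90 to 6.53 in DIO and 6.06 to 6.63 in DIO-R. By the mean log2 value of the list, as for Hspa1a, the median over arrays was lowest in DIO (0.19) and highest in DIO-R (0.55). On single arrays the list and the gene could part: DIO 6, the lowest array for Hspa1a, was the fourth highest of 23 by the mean of the immediate early genes. Their part in the Hspa1a difference was not tested.

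**Figure D5:**
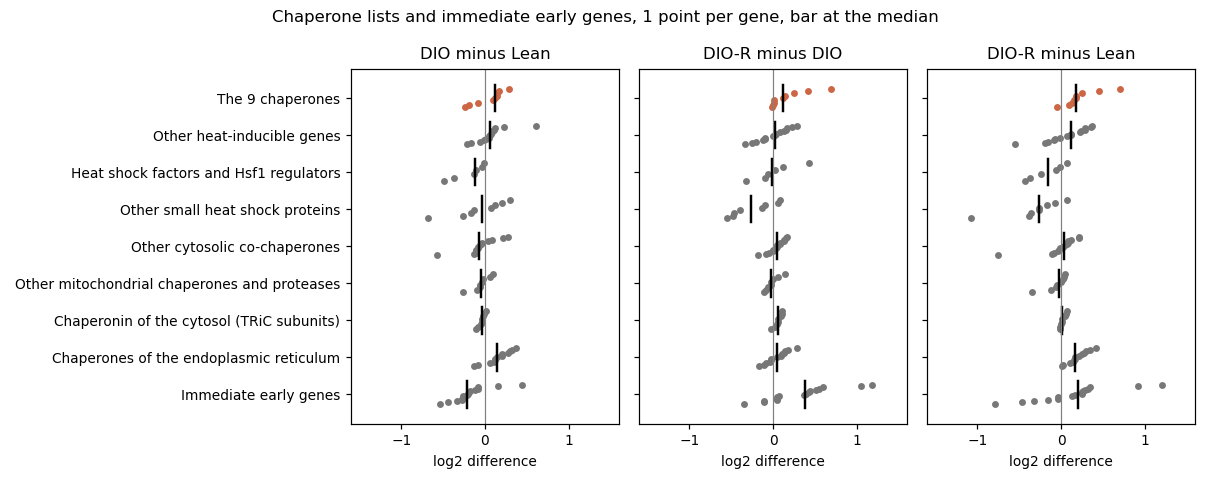
Log2 difference of each gene in the 9 chaperones, 7 other chaperone lists and the immediate early genes, for the 3 comparisons; 1 point is 1 gene and the black bar is the list median. The immediate early genes have the highest median in DIO-R minus DIO (0.39) and the small heat shock proteins the lowest (-0.26).

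Markers of cell types that the dissected tissue could hold differed as follows, each list with the gene of lowest p. In DIO minus Lean the median was -0.33 for 15 keratinocyte markers (Ivl -0.43, adjusted p = 0.501), -0.13 for 13 taste cell markers (Tas1r3 -0.32, adjusted p = 0.425), -0.40 for 10 von Ebner gland markers (Lpo -0.75, adjusted p = 0.592) and 0.00 for skeletal muscle (Myh2 0.63, adjusted p = 0.767). It was -0.20 for 10 adipocyte markers (Pnpla2 -0.37, adjusted p = 0.683), 0.27 for 10 fibroblast markers (Lum 0.96, adjusted p = 0.164), 0.07 for 8 endothelial markers (Tek 0.31, adjusted p = 0.663) and 0.95 for 8 erythrocyte markers (Hbb-bt 1.41, adjusted p = 0.164). It was 0.26 for 11 macrophage and dendritic cell markers and -0.02 for 9 lymphocyte markers (Cd3g 0.95, adjusted p = 0.402). Aif1, the macrophage gene at 0.95 ± 0.13 (adjusted p = 0.00779), was the single marker of any list that passed, and it did not pass with the replicate number as a block.

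In DIO-R minus DIO, 15 of 15 keratinocyte markers were higher (median 0.28, Dsg1a 0.41, adjusted p = 0.517) and 10 of 13 taste markers (median 0.16, Itpr3 0.27, adjusted p = 0.479). Over all genes 51.7% were higher in that comparison. All 10 gland markers (median -0.40, Smr3a -2.60, adjusted p = 0.429), 15 muscle markers (Actn3 -1.09, adjusted p = 0.479), 10 adipocyte markers (median -0.75, Fabp4 -0.82, adjusted p = 0.479) and 8 erythrocyte markers (median -0.95, Hbb-bt -1.23, adjusted p = 0.277) were lower. So were 9 of 10 fibroblast markers (median -0.21, Col3a1 -0.34, adjusted p = 0.608), 7 of 8 endothelial markers (median -0.17, Cldn5 -0.41, adjusted p = 0.501), 10 of 11 macrophage markers (median -0.38, Aif1 -0.42, adjusted p = 0.407) and 7 of 9 lymphocyte markers (median -0.17, with Cd79a at 0.34, adjusted p = 0.605).

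In DIO-R minus Lean the medians were -0.08 for keratinocytes (Krt15 0.26, adjusted p = 0.544), -0.04 for taste cells (Itpr3 0.17, adjusted p = 0.674), -1.05 for the gland (Smr3a -3.11, adjusted p = 0.188, and -3.85, adjusted p = 0.0142, without Lean 3), -0.55 for muscle (Actn3 -1.22, adjusted p = 0.389) and -0.73 for adipocytes (Plin4 -1.36, adjusted p = 0.212). They were 0.10 for fibroblasts (Lum 0.78, adjusted p = 0.237), -0.10 for endothelium (Pecam1 -0.12, adjusted p = 0.828), 0.07 for erythrocytes (Slc4a1 -0.44, adjusted p = 0.774), 0.07 for macrophages (Aif1 0.53, adjusted p = 0.137, and 0.62, adjusted p = 0.0332, without DIO-R 6) and -0.10 for lymphocytes (Cd3g 0.77, adjusted p = 0.516). Lean 3 was the lowest Lean array for the gland markers. Without it the calls over all genes rose from 36 to 64, and without DIO-R 6 they were 31.

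The log2 of the summed keratinocyte markers ran from 10.36 to 11.21 in Lean, 10.16 to 11.16 in DIO and 10.56 to 11.16 in DIO-R. That of the erythrocyte markers ran from 5.99 to 8.04, 7.33 to 9.16 and 6.60 to 8.30. That of the adipocyte markers ran from 4.31 to 6.51, 4.71 to 5.70 and 3.43 to 5.37. That of the gland markers ran from 9.59 to 10.93, 8.44 to 11.02 and 8.48 to 10.33, and that of the muscle markers from 9.33 to 11.38, 9.87 to 11.14 and 8.34 to 10.87. All groups overlapped on each of these lists, and the part of cell makeup in the Hspa1a and Hsph1 differences was not tested.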

How the data were processed

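Labelled RNA of 23 circumvallate papilla samples was measured on 1-colour Agilent mouse arrays. Per the file headers, each deposited spot intensity was already detrended and background-subtracted within its array by the scanner software (Agilent Feature Extraction, version 10.10.1.1), with nothing set equal between arrays. The authors' deposited value table of log2 values (35829 probes, column medians 7.63 to 7.64), credited to limma in the submitters' processing notes, was used as an alternative; its steps are not given in the sources used here. Its columns followed the raw median signal of their own array (Spearman's rho of at least 0.99999).

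Here log2 intensity minus each array's 75th percentile was taken. Control and outlier spots were left out, and 41713 of 55681 probes, well above background on at least 7 arrays, were kept. The brightest probe stood for a gene, and 1843 of 17349 matched symbols were updated through RefSeq (GRCm38.p6). Probe positions are those of mm9 per the file headers. Groups were fitted together in limma 3.58.1 (R 4.3.3) with Benjamini-Hochberg adjustment, tested on simulated data. Correlations used Python 3.11.15 and numpy 2.4.6.

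The chaperones and the gene lists were chosen with earlier results of these data known. All chaperones and all their probes were named, as were the 2 genes of lowest unadjusted p of each other chaperone list and of the immediate early genes, the 1 gene of lowest p of each cell type list, any gene that passed, and the 5 genes most like the chaperones. Marker lists are given by their genes that passed the filter. Alternatives were normexp background, quantile normalization, the authors' table, no filter, mean of probes, slide or replicate number as a block, only the 2 groups compared, a fit over probes, and leaving out single arrays.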

Additional observations from a re-analysis of the deposited data

Results flagged for a closer look

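A single array stood apart within its group for a chaperone probe. Lean 7 had a log2 value of 4.60 at one of the 3 Hspa8 probes (chr9:40611142-40611201 of mm9), the highest of the 7 Lean arrays, with 4.12 the nearest. Lean 7 was also the highest Lean array at the other two Hspa8 probes, at 6.19 and 7.71. In all, 42 groups of arrays were examined, 3 for each of 14 probes, and 1 stood out; chance alone marks about 1 group in 20.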

How the results depend on the processing

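The number of chaperones that passed was 0 in every comparison under each alternative, except that without DIO 10 it was 1 for DIO-R minus DIO (Hspa1a), a leave-one-out range of 0 to 1. DIO 10 was the highest DIO array for that gene. The replicate block gave 0.68 for Hspa1a in DIO-R minus DIO (adjusted p = 0.556) and 0.69 for Hsph1 in DIO-R minus Lean (adjusted p = 0.477). The replicate numbers were not found to pair arrays of different groups. The 18 pairs with the same number had correlations of -0.37 to 0.33 (median -0.030), and 4 were over 0.1. The 158 pairs with different numbers had correlations of -0.32 to 0.45 (median -0.015), and 48 were over 0.1. The block lowered the calls over all genes from 1, 17 and 36 to 0, 4 and 9.

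All 288 DIO minus Lean values kept their sign under the 32 alternatives with a test. Part of the 288 values of each comparison could not change, since each is a difference of group means. Leaving out an array of the group not compared, fitting only the 2 groups or dropping the filter leaves that difference as it was. The mean of probes does the same for a gene with 1 probe. The counts thus overstate how far the signs were tried. In DIO-R minus DIO 23 of 288 changed sign, all near 0. With the authors' table these were Hsf1 (0.0096) and Hspd1 (-0.015), with quantile normalization Hspd1 (-0.016) and Hspe1 (-0.0086), with normexp Hspa8 (0.0038), and with the replicate block Hspa8 (0.052). Leaving out single arrays gave Hsf1 -0.031 to 0.025, Hspa8 -0.047 to 0.025, Hspd1 -0.034 to 0.062 and Hspe1 -0.030 to 0.055. In DIO-R minus Lean, Hspb1 was 0.013 with quantile normalization, 0.022 with the authors' table and 0.021 with the replicate block. Within single slides, with no test, signs also turned: in DIO minus Lean for Hsf1 (-0.044, slide 1) and Dnajb1 (0.030, slide 1), in DIO-R minus DIO for Hspe1 (-0.11, slide 1), Hsf1, Hspa8 and Hspd1, and in DIO-R minus Lean for Dnajb1 (-0.14, slide 3), Hsf1 (-0.022, slide 1) and Hspb1 (0.073, slide 1). The cause was not tested.

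The correlation of Hspa1a with Hspd1 was -0.071 and with Hspe1 -0.14 without the 2 farthest arrays. Within slide 3 it was -0.0049 with Hspd1 and -0.096 with Hsf1, and within slide 1 -0.53 with Hspe1 and -0.015 with Hsf1. The number of arrays, 7 or 8 a group, limits the precision.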
